A study of Mus musculus with 80 samples.

Results

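Rpl10a and Rangap1 are the mouse genes whose proteins form part of the fusions made from the NuTRAP allele, and both were chosen by name for that reason. They were 2 of the 15919 genes listed for the sort comparison and 2 of the 16000 genes listed for the cell preparation comparison, and both passed the filter on low counts in each. Rpl10a encodes a protein of the large ribosomal subunit. Rangap1 encodes the activator of the GTPase Ran, which keeps Ran in its GDP form in the cytoplasm and so gives importins and exportins their direction. RanGAP1 is held at the cytoplasmic face of the nuclear pore by Ranbp2. In NuTRAP mice, EGFP joined to the ribosomal protein tags ribosomes, so that an antibody to GFP pulls down the RNA bound to them (translating ribosome affinity purification, TRAP), and mCherry with a biotin acceptor joined to RanGAP1 tags the nuclear envelope. Both fusions stay silent until Cre removes a stop cassette. In counts per gene, reads from a fusion transcript and reads from the gene's own transcript cannot be told apart, and how far the authors' counting assigned fusion reads to these genes is not given in the sources used here.

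In the mm10 build used for the deposited counts, Rpl10a (gene ID 19896, ENSMUSG00000037805) lies on the plus strand of chromosome 17 from 28328471 to 28331033, and its annotated principal transcript has 6 exons and 729 bases, 648 of them coding. Rangap1 (gene ID 19387, ENSMUSG00000022391) lies on the minus strand of chromosome 15 from 81704248 to 81729919, with 16 exons and a transcript of 3033 bases, 1767 of them coding. Processed pseudogenes of Rpl10a exist in the mouse genome and 0 named for it were listed in either table, so any reads shared between Rpl10a and such copies make its level uncertain.

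The study asked how the ways of isolating microglia, the resident macrophages of the brain, affect the RNA recovered from them. All 80 libraries came from 22 mice of the genotype Cx3cr1(Jung)-cre/Ert2+;NuTRAP+, which all received tamoxifen by injection (100 mg/kg) at about 3 months of age, so every group carried the induced tag and there was no group without it. The sort comparison held 48 libraries from 14 mice and the cell preparation comparison 32 libraries from 12 mice, and each preparation gave an Input library (RNA of the cleared lysate) and a TRAP library. The labels give neither sex nor age at harvest, and by the authors' methods every group held males and females. Cre in these mice is driven from Cx3cr1, which microglia express and which other macrophages and monocytes express too, so the tag is not limited to microglia by its driver. By the authors' methods, harvest followed tamoxifen after a wait meant to let tagged cells of the blood turn over.

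In the sort comparison, Tissue was brain homogenized at once (n = 4), and Cell was an enzymatic and mechanical suspension without sorting (n = 4, the same mice as Tissue). The 4 sorts started from such suspensions: autoMACS with CD11b beads (n = 4), autoMACS followed by Tyto (n = 3), the cartridge sorter Tyto (n = 5) and the cytometer FACSAria (n = 4), the cytometric sorts with gates on CD11b, CD45 and eGFP. In the cell preparation comparison, Tissue came again from those 4 mice, Dounce was a mechanical dissociation kept cold (n = 4), Cell was the enzymatic suspension (n = 4), and Cell plus inhibitors was the same from the same mice with inhibitors of transcription and translation present (n = 4). The sorted cells, the Dounce suspensions and the Cell suspensions of the preparation comparison came from mice other than those of Tissue, so preparation and mouse cannot be told apart in those comparisons. Library totals ran from 7.13 to 20.2 M expected counts in the sort comparison (median 15.2) and from 2.47 to 14.6 M in the preparation comparison (median 10.2), with Dounce-TRAP the shallowest at 2.47 to 4.72 M. Levels are given as CPM (counts of a gene relative to the library total, scaled by TMM), and the reads carry no molecular identifiers, so SDs hold PCR and counting error together with the differences between mice.

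The cell type behind each preparation was checked with 5 marker lists. All 6 microglia markers were measured, and their summed level averaged 246 CPM in Tissue-Input, 5409 in Tissue-TRAP, 4500 in Cell-Input and 29690 in Cell-TRAP of the sort comparison. In the 4 sorts the sum averaged 27650 to 33700 CPM in Input and 35470 to 39080 in TRAP. In the preparation comparison it averaged 278 in Tissue-Input, 7020 in Tissue-TRAP, 1684 in Dounce-Input, 32640 in Dounce-TRAP, 7004 in Cell-Input and 35060 in Cell-TRAP. Microglial RNA was thus a small part of Tissue-Input and of both unsorted suspensions, and TRAP raised it in each of them. Cx3cr1, which drives the tag, moved the same way, from a mean of 18.9 CPM in Tissue-Input to 380.0 in Tissue-TRAP and from 433 in Cell-Input to 3024 in Cell-TRAP. Gt(ROSA)26Sor, the noncoding RNA of the locus that holds the NuTRAP allele, did not, with a mean of 44.4 CPM in Tissue-Input, 39.02 in Tissue-TRAP, 44.8 in Cell-Input and 14.4 in Cell-TRAP.

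The other lists show which cells made up the unsorted Input. In the sort comparison the 5 neuron markers, led by Snap25, summed to 4790 CPM in Tissue-Input and 4614 in Tissue-TRAP, against 566 in Cell-Input and 133 in Cell-TRAP. The 5 oligodendrocyte markers summed to 3061 and 767 CPM in the Input and TRAP of Tissue and to 9945 and 474 in those of Cell. The 5 astrocyte markers, led by Aldoc or Slc1a3, summed to 1795 and 1672 CPM in Tissue and to 4594 and 976 in Cell. The suspension therefore held fewer neuronal and more oligodendrocyte and astrocyte transcripts than Tissue-Input, and TRAP from it held less of each than its Input. The 5 endothelial markers summed to 45.97 and 143 CPM in Tissue and to 1057 and 721 in Cell, so TRAP did not remove endothelial RNA to the same degree. In Input of the 4 sorts the mean sums of a group were 7.95 to 14.6 CPM for neurons, 175 to 421 for oligodendrocytes, 186 to 245 for astrocytes and 65.2 to 143 for endothelium, each below Cell-Input. In the preparation comparison Dounce-Input kept more neuronal RNA (2566 CPM) than Cell-Input (471). The part of these cell types in the results for Rpl10a and Rangap1 was not tested, and in such bulk libraries fewer cells of a type and less RNA per cell cannot be told apart.

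Several libraries stood apart from their groups in a marker sum. The 3 named next also held the lowest Rangap1 of their groups. AutoMACS-Input replicate 3 had a microglia sum of 19220 CPM against 29300 to 31600 in the other 3, a neuron sum of 29.7 CPM against 7.95 to 10.8, and the lowest total of the sort comparison (7.13 M). Dounce-TRAP replicate 3 had a microglia sum of 29360 CPM against 32410 to 34440 and a neuron sum of 1682 against 927.5 to 1159. FACSAria-Input replicate 4 had an oligodendrocyte sum of 389 CPM against 180.3 to 189.8 and an endothelial sum of 217 against 106 to 137. Tissue-Input replicate 2 (microglia sum of 335 CPM against 212 to 219), Cell-TRAP replicate 1 (neuron sum of 239.8 against 72.9 to 115) and Tyto-Input replicate 2 (oligodendrocyte sum of 729 against 268 to 444) of the sort comparison also stood apart. The Rangap1 values that the first 3 libraries moved most are given below with and without them.

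The scaling itself rests in part on 1 such library. TMM sets each library against a reference that edgeR picks, and in the joint fit of the preparation comparison it picked Dounce-TRAP replicate 3. This was noticed after the data had been seen, and fits against the mean profile of all libraries and against each library in turn were added then. In Cell of the preparation comparison the median TRAP minus Input difference over all genes was -0.42 with the picked reference, -0.19 against the mean profile and -0.42 to -0.03 over the 32 references, so the picked one lay at an end of the range. In Cell of the sort comparison, where Cell-TRAP replicate 3 was picked, it was -0.07, -0.25 and -0.37 to -0.01 over 48 references. Changes of Rpl10a and Rangap1 that depend on this choice are named below, and their ratios to other genes within a library do not depend on it.

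Rpl10a, the ribosome tag gene, was low in unsorted Input and high in Input of sorted cells. Its level was 117, 117, 104 and 105 CPM in the 4 Tissue-Input libraries and 217, 193, 214 and 204 in Tissue-TRAP. In the suspension it was 128, 142, 133 and 139.5 CPM in Cell-Input and 242, 216, 238 and 223 in Cell-TRAP. In both preparations every TRAP library lay above every Input library. The group means were 111 ± 7.20 (SD, n = 4) and 207 ± 10.8 (SD, n = 4) CPM in Tissue, and 136 ± 6.69 (SD, n = 4) and 229.7 ± 12.2 (SD, n = 4) in Cell. TRAP was above Input by 0.90 ± 0.07 (log2, SE) in Tissue, with an adjusted p of 1.88e-14 by edgeR's quasi-likelihood test with Benjamini-Hochberg adjustment (false discovery rate, called under 0.1), where 32.6% of all genes tested were called. In Cell the difference was 0.76 ± 0.07 (edgeR quasi-likelihood, Benjamini-Hochberg adjusted p = 1.14e-12), where 79.6% of genes were called. Scaling with DESeq2 size factors moved the median difference over all genes in Cell from -0.07 to -0.48 and that of Rpl10a from 0.76 to 0.35, still called, so against the median gene Rpl10a stood above by a like amount under both. Over the 48 references it ranged from 0.45 to 0.82, called with all.

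In the sorts the order of TRAP and Input turned around. Rpl10a was at 418, 448, 418 and 429 CPM in autoMACS-Input and 302, 322, 350.4 and 382 in autoMACS-TRAP, and at 437, 370.4 and 408 and 317, 284 and 275 in the Input and TRAP of autoMACS-to-Tyto. In both sorts every Input library exceeded every TRAP library. In Tyto, Rpl10a was at 384, 377, 428, 391 and 391 CPM in Input and 312, 345, 329, 291 and 358 in TRAP, again without overlap. FACSAria was the exception, with 379.7, 381, 371 and 359 CPM in Input and 366, 329, 331 and 311 in TRAP, where 1 TRAP library lay within the range of Input. Within every mouse of that sort TRAP was below Input. Rpl10a fell by 0.34 ± 0.07 (log2, SE) in autoMACS (edgeR quasi-likelihood, Benjamini-Hochberg adjusted p = 0.000318; 43% of genes called) and by 0.47 ± 0.08 in autoMACS-to-Tyto (adjusted p = 2.82e-05; 23.7% called). It fell by 0.27 ± 0.06 in Tyto (edgeR quasi-likelihood, Benjamini-Hochberg adjusted p = 0.000669; 46.8% of genes called) and by 0.16 ± 0.07 in FACSAria (adjusted p = 0.0942; 32% called). The FACSAria call was fragile: it held with 3 of 48 TMM references, and was lost against their mean profile (-0.10), with DESeq2 size factors (-0.13) and without any 1 of 7 libraries, namely Input replicates 1 to 4 (-0.14, -0.15, -0.16 and -0.16) and TRAP replicates 2 to 4 (-0.14, -0.14 and -0.12). It was kept with the mouse as a replicate block. In none of the 6 preparations did Rpl10a pass a fold of 2 between TRAP and Input.

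Across all 12 groups of the sort comparison, mean Rpl10a rose from Tissue-Input through Cell-Input, Tissue-TRAP and Cell-TRAP to the sorts, where the TRAP groups (292 to 339 CPM) came before the Input groups (373 to 428 CPM). Tissue-Input and Cell-Input each lay apart from the next group, while Tissue-TRAP and Cell-TRAP overlapped. From autoMACS-to-Tyto-TRAP upward each group overlapped the next, so neighbours within the sorted groups did not differ beyond their spread.

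**Figure D1:**
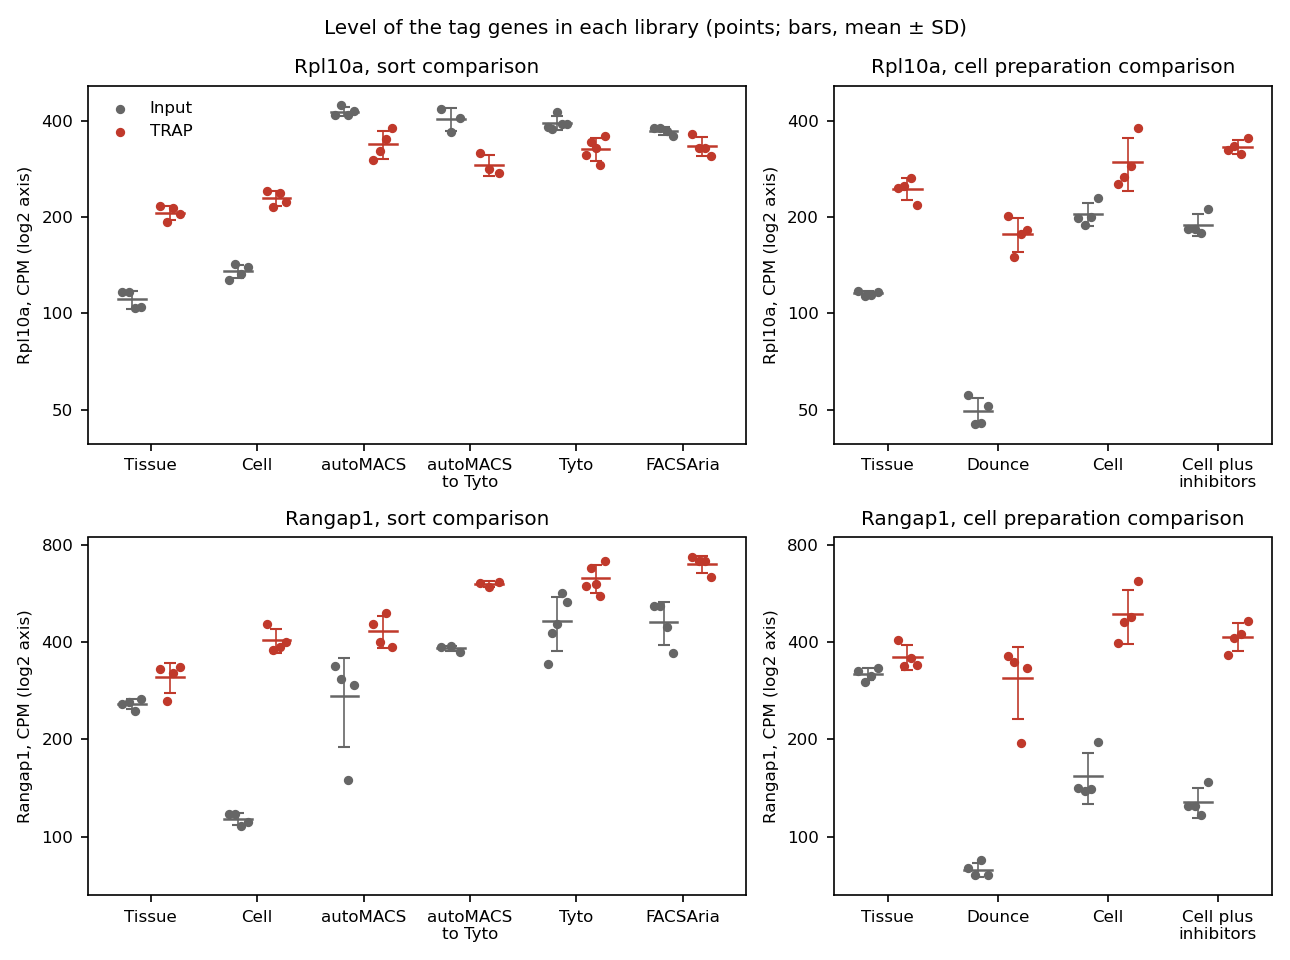
Level of Rpl10a (top) and Rangap1 (bottom) in CPM on a log2 axis, 1 point per library, in the Input (grey) and TRAP (red) libraries of each preparation, with bars for the mean ± SD; the sort comparison is on the left and the cell preparation comparison, normalized separately, on the right. Rpl10a reaches its highest levels in Input of sorted cells, and Rangap1 is lower in Cell-Input and Dounce-Input than in Tissue-Input.

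The other ribosomal protein genes give the setting for Rpl10a. Of the genes written into the list, 46 of 46 for the large subunit and 31 of 33 for the small subunit were listed, 77 in all besides Rpl10a. In Tissue of the sort comparison their median TRAP minus Input difference was 0.11 (log2), against a median of 0.03 over all genes. Of the 77, 24 were called higher, 2 lower and 51 not called, a share near the 32.6% called over all genes, so these calls do not set the list apart. With a filter of at least 10 counts in every library the median of the 77 was -0.01, and it was above 0 with 44 of 48 TMM references. In Cell the median was -0.70, with 1 of 77 higher and 68 lower (79.6% of all genes called), against -0.07 over all genes, and with DESeq2 size factors it was -1.11 with 77 lower. In autoMACS, autoMACS-to-Tyto, Tyto and FACSAria all 77 were lower in TRAP, with medians of -1.13, -1.31, -1.12 and -0.97, against -0.20, -0.08, -0.18 and -0.12 over all genes, and all 77 were lower under each scaling tried. Over all genes 43%, 23.7%, 46.8% and 32% were called in these sorts. Most ribosomal protein mRNAs were thus lower in TRAP than in Input in Cell, and all 77 in the sorts, and Rpl10a was the member of the family with the highest TRAP minus Input difference in each of the 6 preparations, under every filter, test and scaling method tried.

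Named members show the spread of the family. In Tissue, Rps9 (0.64), Rpl18 (0.54), Fau (0.53), Rpl10 (0.52), Rpl7 (0.48) and Rps4x (0.46) were called higher in TRAP, each below Rpl10a. At the other end Rps21 (-0.42) and Rps19 (-0.36) fell, while Rpl41 (-0.21), Rplp1 (-0.14), Rpl34 (-0.11) and Rps29 (-0.11) were not called. In Cell, Fau at 0.24 was the 1 gene called higher, and Rpl5 (0.15), Rps9 (0.13), Rpl7 (0.06), Rpl18 (0.01) and Rps3 (-0.07) were not called. Rps20 (-1.53), Rps19 (-1.41), Rps21 (-1.40), Rpl39 (-1.37) and Rpl32 (-1.20) were among the genes that fell most in Cell. Rpl10, which differs from Rpl10a by a letter in its name and encodes another protein of the large subunit, was at -0.12 in Cell, not called, and fell by 0.76, 1.06, 0.78 and 0.73 in the 4 sorts in the order above.

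Set against the mean of the 77 within each library, which no scaling of libraries can change, Rpl10a was above its family in TRAP in all 6 preparations. In Tissue the log2 ratio was -0.50 ± 0.04 (SD, n = 4) in Input and 0.27 ± 0.07 in TRAP, and in Cell -0.36 ± 0.11 and 1.05 ± 0.05. In autoMACS it was 0.23 ± 0.14 in Input and 0.96 ± 0.10 in TRAP, in autoMACS-to-Tyto 0.20 ± 0.05 and 1.01 ± 0.05, in Tyto 0.33 ± 0.12 and 1.12 ± 0.14, and in FACSAria 0.44 ± 0.10 and 1.23 ± 0.09. Input and TRAP libraries did not overlap in any of these. The TRAP minus Input difference of the ratio was 0.78, 1.41, 0.74, 0.79 and 0.78 in Tissue, Cell, autoMACS, Tyto and FACSAria, each with an adjusted p of 0.0423 (exact two-sided permutation test over libraries, Benjamini-Hochberg over 20 tests). In autoMACS-to-Tyto it was 0.81 with an adjusted p of 0.111, where 3 libraries against 3 allow an exact permutation p of no less than 0.1. With 4 against 4 the smallest exact permutation p is 0.0286, and with 5 against 5 it is 0.00794. So Rpl10a fell less than its family between Input and TRAP of sorted cells, while in Tissue it rose more.

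The Rpl10a ratio also differed between preparations. In Input of the 4 sorts together it exceeded Cell-Input by 0.66 with all 16 sorted libraries above all 4 of Cell (exact two-sided permutation, adjusted p = 0.00413), although some mice gave libraries to more than 1 sort, so those 16 are not independent. Sorted Input was the 1 kind of Input in which Rpl10a stood above the family mean. In TRAP the sorts and Cell overlapped, with a difference of 0.03 (exact permutation, adjusted p = 0.667), while Cell-TRAP exceeded Tissue-TRAP by 0.78 in 4 of 4 libraries (exact permutation, adjusted p = 0.0423). In Input, Cell exceeded Tissue by 0.15 with 3 of 4 libraries above all of Tissue (exact permutation, adjusted p = 0.0714). That call was lost without Cell-Input replicate 3 (0.10), without Tissue-Input replicates 2, 3 or 4 in turn (0.14, 0.14 and 0.15), and with the median of the family in place of its mean (0.11).

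In the cell preparation comparison, Rpl10a was higher in TRAP than in Input in all 4 preparations. It was at 117, 113, 115 and 117 CPM in Tissue-Input and 248, 251, 265 and 219 in Tissue-TRAP, and at 55.5, 45.02, 45.5 and 51.4 in Dounce-Input and 201, 149.9, 177 and 182 in Dounce-TRAP. Dounce-Input held the lowest Rpl10a of any group, and TRAP and Input did not overlap in either preparation. In Cell it was at 199, 189.8, 201 and 230.0 CPM in Input and 253, 268, 289.6 and 379 in TRAP, and with inhibitors at 184, 183, 178 and 212 and 325, 335, 316 and 354. Again all 4 TRAP libraries lay above all 4 Input libraries, with TRAP replicate 4 the highest in each. TRAP exceeded Input by 1.09 ± 0.11 (log2, SE) in Tissue (edgeR quasi-likelihood, Benjamini-Hochberg adjusted p = 8.70e-10; 27.4% of genes called) and by 1.84 ± 0.11 in Dounce (adjusted p = 2.60e-15; 73.3% called). Without 1 replicate the Dounce value ran from 1.53 to 1.92. In Cell the difference was 0.54 ± 0.11 (edgeR quasi-likelihood, Benjamini-Hochberg adjusted p = 5.09e-05; 75.8% of genes called), and with inhibitors 0.81 ± 0.11 (adjusted p = 7.67e-08; 72.8% called). The picked TMM reference gave the lowest of 32 values for Rpl10a in both suspensions: against the mean profile they were 0.77 in Cell and 1.02 with inhibitors, called with every reference. Tissue and Dounce passed a fold of 2, Cell did not, and Cell plus inhibitors did so only with other references. In the order of mean levels, Dounce-Input (49.3 CPM) and Tissue-Input (116 CPM) each stood apart from the next, and from Dounce-TRAP (177 CPM) to Cell plus inhibitors-TRAP (332 CPM) each group overlapped its neighbour.

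The ribosomal family moved against Rpl10a in both enzymatic suspensions. Its median TRAP minus Input difference was 0.14 in Tissue (15 of 77 higher, 1 lower), -1.15 in Cell (77 of 77 lower) and -0.59 with inhibitors (66 of 77 lower, 11 not called), against medians of 0, -0.42 and -0.39 over all genes. Over all genes 27.4%, 75.8% and 72.8% were called, so in Tissue the family was called no more often than other genes. In Dounce the median was 0.10, with 28 higher and 16 lower (73.3% of all genes called), against -0.21 over all genes. The direction turned with DESeq2 size factors (-0.12, 18 higher and 30 lower), with the filter of at least 10 counts in every library (-0.33) and against the mean profile of all libraries (-0.06). Rpl10a had the highest difference of the family in all 4 preparations under every filter, test and scaling method tried. Rps9 (0.77), Rpl10 (0.54), Fau (0.52), Rpl7 (0.51), Rpl7a (0.47) and Rps4x (0.46) came next in Tissue, where Rps21 fell by 0.49 and Rpl38 (-0.24), Rps19 (-0.22), Rpl41 (-0.20), Rps28 (-0.19) and Rpl26 (-0.10) were not called. In Cell even the least affected members, Rpl7 (-0.26), Rpl5 (-0.27), Fau (-0.30), Rps9 (-0.40), Rpl19 (-0.45) and Rps3 (-0.53), fell, and Rps21 (-2.01), Rps20 (-1.91), Rpl39 (-1.85), Rps28 (-1.76), Rpl38 (-1.73) and Rpl41 (-1.65) fell most. Rpl10 was at 0.91 in Dounce, -0.57 in Cell and 0.02 with inhibitors, the last not called.

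Relative to the 77 within each library, Rpl10a was at -0.61 ± 0.09 (log2, SD, n = 4) in Tissue-Input and 0.34 ± 0.04 in Tissue-TRAP, and at -0.41 ± 0.17 and 1.33 ± 0.18 in Dounce. In Cell the ratio was -0.32 ± 0.10 in Input and 1.30 ± 0.12 in TRAP, and with inhibitors -0.40 ± 0.11 and 1.02 ± 0.09. Rpl10a thus lay below the family mean in every unsorted Input and above it in every TRAP group, with no overlap. The differences of 0.95, 1.74, 1.63 and 1.42 each had an adjusted p of 0.0490 (exact two-sided permutation, Benjamini-Hochberg over 24 tests). Cell-TRAP exceeded Tissue-TRAP by 0.96 and Dounce-TRAP exceeded it by 0.98, each in 4 of 4 libraries (exact permutation, adjusted p = 0.0490). Dounce-TRAP and Cell-TRAP differed by 0.02 (exact permutation, adjusted p = 0.914), with a sign that turned without Dounce-TRAP replicate 4 (-0.05) or Cell-TRAP replicates 1 (-0.00) or 2 (-0.01).

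The inhibitors lowered that ratio. Cell plus inhibitors-TRAP lay below Cell-TRAP by -0.28 in 4 of 4 libraries (exact two-sided permutation, adjusted p = 0.0490), without overlap. Over the same pair of TRAP groups Rpl10a itself differed by 0.17 (edgeR quasi-likelihood, Benjamini-Hochberg adjusted p = 0.812; 0.10 to 0.30 without 1 replicate), while 34 of the 77 other ribosomal protein genes were called higher with inhibitors and 0 lower, with a median of 0.47 against -0.03 over all genes and 2.11% of genes called. The ratio thus fell while a part of the family was called higher and Rpl10a was not. In Input no ribosomal protein gene was called between Cell with and without inhibitors, and 0.381% of genes were; Rpl10a was at -0.12 (-0.18 to -0.05 without 1 replicate) and Rangap1 at -0.27 (-0.35 to -0.13) there (both adjusted p = 1, edgeR quasi-likelihood with Benjamini-Hochberg adjustment). The groups share mice, and in the paired Input libraries given below for Rangap1 and above for Rpl10a both genes were lower with inhibitors in 4 of 4 mice. This does not hold for Rpl10a in TRAP.

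**Figure D2:**
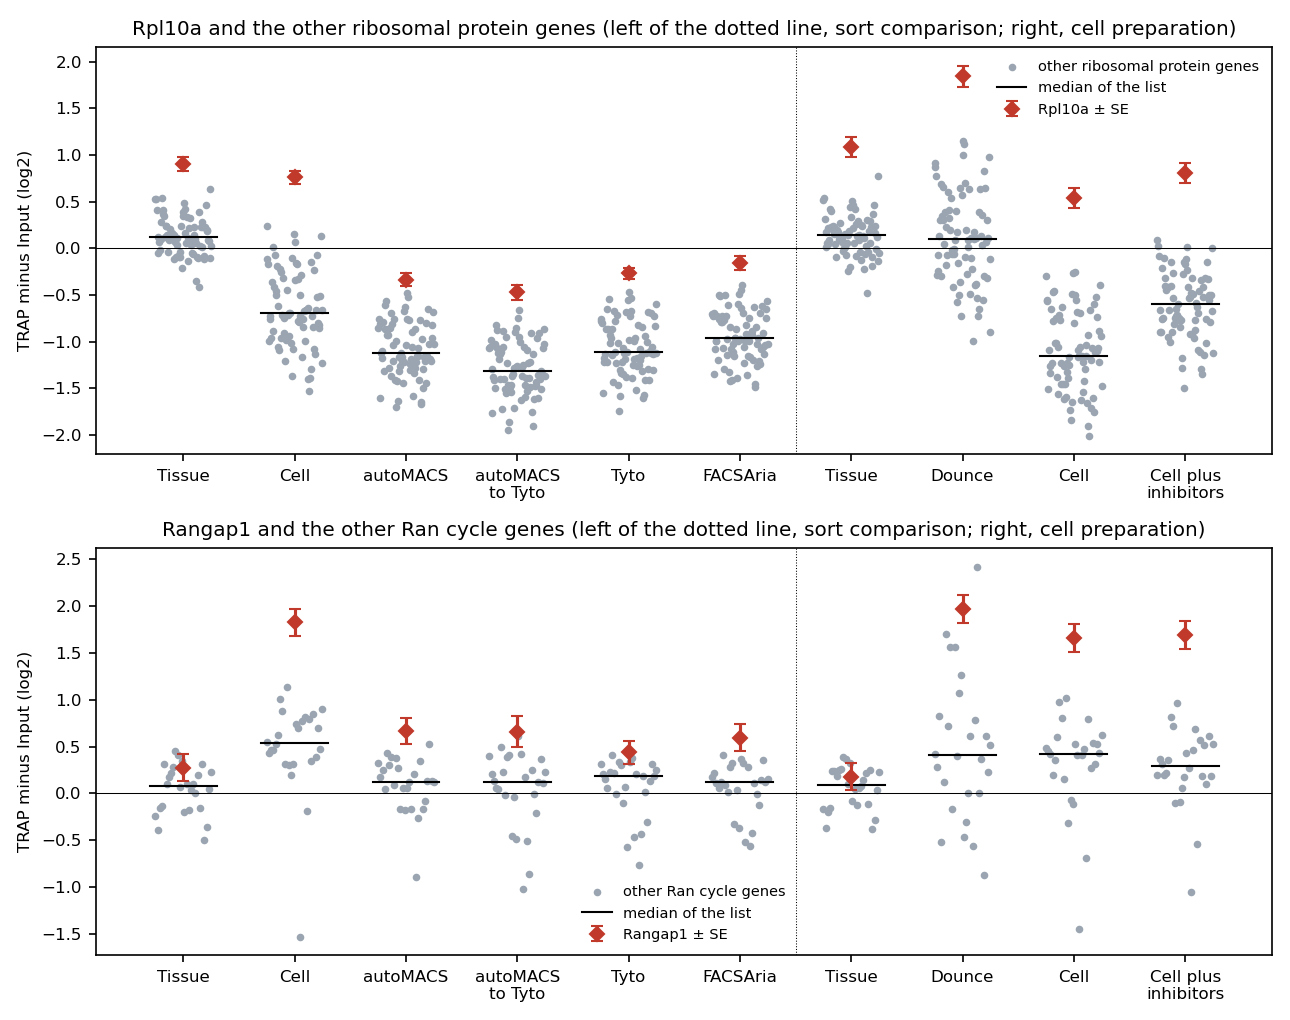
TRAP minus Input difference (log2) in each preparation for Rpl10a with the 77 other ribosomal protein genes (top) and Rangap1 with the 26 other genes of the Ran cycle (bottom); red diamonds are the tag gene ± SE, grey points the other genes, and black lines their medians, whose sign in Dounce and in Tissue turns under some settings in both lists. Rpl10a lies above all 77 in all 10 preparations, and Rangap1 above all 26 in 7 of the 10.

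Rangap1, the nuclear tag gene, took another course. It was at 258, 261, 245 and 267 CPM in Tissue-Input and 330.1, 263, 321 and 334 in Tissue-TRAP of the sort comparison, where TRAP replicate 2 lay among the Input libraries. In Cell-Input it was at 118, 118, 108 and 111 CPM, below every Tissue-Input library, and in Cell-TRAP at 453, 378, 386 and 400.3. The means were 258 ± 9.33 (SD, n = 4) and 312 ± 32.9 (SD, n = 4) CPM in Tissue and 114 ± 4.84 (SD, n = 4) and 404 ± 33.8 (SD, n = 4) in Cell. The TRAP minus Input difference in Tissue, 0.28 ± 0.14 (log2, SE), was not called (edgeR quasi-likelihood, Benjamini-Hochberg adjusted p = 0.156), although it was without Tissue-TRAP replicate 2 (0.35, adjusted p = 0.0854 by the same test) and with TMM against the mean profile of all libraries (0.30, adjusted p = 0.0953), with 0 of 48 single references giving a call. In Cell the difference was 1.83 ± 0.15 with all 4 TRAP libraries above all 4 of Input (edgeR quasi-likelihood, Benjamini-Hochberg adjusted p = 1.20e-14). Only Cell passed a fold of 2 among the 6 preparations of the sort comparison.

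In the sorts mean Rangap1 was higher in TRAP too, by less. It was at 338, 308, 150.1 and 295 CPM in autoMACS-Input and 456, 402, 492 and 386 in autoMACS-TRAP, and at 386, 388 and 373 and 609, 591 and 613 in autoMACS-to-Tyto. Input and TRAP did not overlap in either, and the low value in autoMACS-Input belongs to replicate 3, the library that stood apart. In Tyto it was at 343, 426, 455, 567 and 531 CPM in Input and 597, 678, 603, 556 and 714 in TRAP, with Input replicate 4 above TRAP of the same mouse, the lowest of TRAP. In FACSAria it was at 516, 517, 444 and 371 and 732, 712, 712 and 636, with no overlap. The differences were 0.67 ± 0.14 (log2, SE) in autoMACS (edgeR quasi-likelihood, Benjamini-Hochberg adjusted p = 0.000413) and 0.66 ± 0.16 in autoMACS-to-Tyto (adjusted p = 0.00308). They were 0.44 ± 0.13 in Tyto (edgeR quasi-likelihood, Benjamini-Hochberg adjusted p = 0.00517) and 0.60 ± 0.14 in FACSAria (adjusted p = 0.00179). Without autoMACS-Input replicate 3 the autoMACS difference was 0.47, still called, and without FACSAria-Input replicate 4 that of FACSAria was 0.52, still called.

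In the order of mean levels, Cell-Input was the lowest of the 12 groups and apart from Tissue-Input, the next. Tissue-Input, autoMACS-Input and Tissue-TRAP overlapped in turn, the first pair only through autoMACS-Input replicate 3 (the other 3 lay above all of Tissue-Input), then came a gap below autoMACS-to-Tyto-Input (382 CPM). From there Cell-TRAP, autoMACS-TRAP, FACSAria-Input and Tyto-Input (464 CPM) overlapped each with the next, and the TRAP groups of the 3 cytometric sorts came last, each overlapping its neighbour, although autoMACS-to-Tyto (604 CPM) and FACSAria (698 CPM) at the ends of that set did not overlap.

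Genes that work with RanGAP1 were taken as its family: 10 regulators of the Ran cycle and 16 transport receptors, all listed. Their median TRAP minus Input difference was 0.08 in Tissue (8 of 26 higher, 3 lower), turning to -0.00 with DESeq2 size factors and above 0 with 44 of 48 TMM references, and 0.54 in Cell (24 higher, 2 lower), where size factors gave 0.13 (10 higher, 3 lower). In autoMACS, autoMACS-to-Tyto, Tyto and FACSAria the medians were 0.13, 0.13, 0.19 and 0.12, with 8, 7, 12 and 7 of 26 called higher and 2, 6, 5 and 4 lower, and stayed above 0 under each scaling. Over all genes 32.6% were called in Tissue, 79.6% in Cell and 43%, 23.7%, 46.8% and 32% in the sorts in that order. Whether the list differs from all genes in its calls was not tested. Rangap1 lay above all 26 in Cell and in the 4 sorts, and 6 of 26 lay above it in Tissue. Among the regulators in Tissue, Nutf2, the carrier of Ran-GDP into the nucleus (0.41), and Ranbp1, a cofactor of RanGAP1 (0.35), were called higher, while the RanGAP1 anchor Ranbp2 (-0.20) and Rangrf (-0.18) were not called. In Cell, Senp2 (0.81) and Rcc1, the nuclear exchange factor of Ran (0.78), were among those that rose most, Ran itself rose by 0.20, and Rangrf fell by 1.53. Among the receptors in Tissue, the importins Kpnb1 (0.46), Kpna1 (0.32) and Kpna6 (0.28) rose, the exportin Xpo1 (-0.50) and Ipo5 (-0.39) fell, and Xpo5 (-0.36) was not called. In Cell, Kpnb1 (1.14), Kpna3 (1.01) and the tRNA exporter Xpot (0.90) led, and even the lowest, Kpna6 (0.31), Tnpo3 (0.35) and Xpo1 (0.39), were called higher.

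Relative to the mean of these 26 within each library, Rangap1 in Tissue was at 2.30 ± 0.05 (log2, SD, n = 4) in Input and 2.53 ± 0.09 in TRAP, and in Cell at 1.12 ± 0.07 and 2.44 ± 0.08. The ratio was thus low in Cell-Input, and in TRAP it overlapped between both preparations, although with the 10 regulators alone as the family Cell-TRAP was higher (0.59, called). In autoMACS it was 1.76 ± 0.43 in Input and 2.37 ± 0.13 in TRAP, in autoMACS-to-Tyto 2.20 ± 0.05 and 2.82 ± 0.02, in Tyto 2.53 ± 0.28 and 2.92 ± 0.18, and in FACSAria 2.52 ± 0.17 and 3.07 ± 0.13. TRAP exceeded Input by 0.23 in Tissue, 1.33 in Cell, 0.60 in autoMACS, 0.39 in Tyto and 0.55 in FACSAria, each with an adjusted p of 0.0423 (exact two-sided permutation, Benjamini-Hochberg over 20 tests). All TRAP libraries lay above all Input libraries in these groups except Tyto, where 4 of 5 did. In autoMACS-to-Tyto the difference was 0.62 in 3 of 3 libraries, with an exact permutation p of 0.1, the smallest that 3 against 3 allow. Without autoMACS-Input replicate 3 the autoMACS difference dropped from 0.60 to 0.39, and with the median of the list in place of its mean the Tissue call was lost (0.12).

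In the cell preparation comparison Rangap1 was at 326, 302, 315 and 333 CPM in Tissue-Input and 407, 337, 358 and 339.5 in Tissue-TRAP, and at 80.1, 76.1, 84.7 and 76.2 in Dounce-Input and 363, 348, 195 and 333 in Dounce-TRAP. All TRAP libraries lay above all Input libraries in both, in Tissue by little, and Dounce-TRAP replicate 3 was far below the other 3. In Cell it was at 142, 138, 141 and 196 CPM in Input and 398, 459.9, 477 and 618 in TRAP, and with inhibitors at 125, 125, 117 and 148 and 364, 410.2, 424 and 463. Both suspensions held less Rangap1 in Input than Tissue and more in TRAP than in Input, with no overlap. The Tissue difference of 0.18 ± 0.14 (log2, SE) was not called (edgeR quasi-likelihood, Benjamini-Hochberg adjusted p = 0.443), and ran from 0.11 to 0.21 without 1 replicate. The Dounce difference was 1.97 ± 0.15 (edgeR quasi-likelihood, Benjamini-Hochberg adjusted p = 5.93e-13), and 1.82 without TRAP replicate 3, where another reference is picked for the scaling. Cell gave 1.66 ± 0.15 (edgeR quasi-likelihood, Benjamini-Hochberg adjusted p = 1.97e-11) and Cell plus inhibitors 1.69 ± 0.15 (adjusted p = 1.32e-11). These 3 passed a fold of 2. Dounce-Input (79.3 CPM) was lowest and apart from the rest, Cell plus inhibitors-Input, Cell-Input, Dounce-TRAP and Tissue-Input (319 CPM) overlapped in turn, and Tissue-TRAP, Cell plus inhibitors-TRAP and Cell-TRAP (488 CPM) came last, overlapping in turn. The overlap of Cell-Input with Dounce-TRAP rests on Cell-Input replicate 4 and Dounce-TRAP replicate 3; the other 3 Dounce-TRAP libraries lay above all of Cell-Input and of Tissue-Input.

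The 26 other Ran cycle genes had median differences of 0.09 in Tissue (6 higher, 2 lower), 0.41 in Dounce (17 higher, 5 lower), 0.43 in Cell (20 higher, 3 lower) and 0.29 with inhibitors (16 higher, 2 lower), of which Tissue and Dounce turned to -0.01 with the filter of at least 10 counts in every library and Tissue stayed above 0 with 27 of 32 TMM references. Over all genes 27.4%, 73.3%, 75.8% and 72.8% were called in these preparations in that order. Rangap1 lay above all 26 in Cell with and without inhibitors, below 11 of them in Tissue, and below 1 in Dounce, the import receptor Tnpo1 (2.42), named after its value was seen. In Tissue, Kpnb1 (0.39), Nutf2 (0.37), Ranbp1 (0.32), Kpna6 (0.26) and Kpna4 (0.25) were called higher, Xpo1 (-0.38) and Ipo5 (-0.37) lower, and Xpo5 (-0.28), Rangrf (-0.13), Ranbp2 (-0.08) and Ranbp3 (0.05) were not called. In Cell, Kpnb1 (1.02), Kpna3 (0.98), Kpna4 (0.80), Ranbp2 (0.53) and Senp2 (0.48) rose, Tnpo3 (0.27) and Ipo9 (0.19) rose least of the receptors called, Kpna6 (0.16) was not called, and Nutf2 (-0.32) and Rangrf (-1.45) fell. Relative to the 26 within each library Rangap1 was at 2.39 ± 0.04 (log2, SD, n = 4) in Tissue-Input and 2.50 ± 0.10 in Tissue-TRAP, at 0.76 ± 0.14 and 2.22 ± 0.43 in Dounce, at 1.21 ± 0.22 and 2.55 ± 0.22 in Cell, and at 0.95 ± 0.15 and 2.36 ± 0.11 with inhibitors. The ratio rose by 1.46, 1.34 and 1.42 in Dounce, Cell and Cell plus inhibitors, in 4 of 4 libraries each (exact two-sided permutation, Benjamini-Hochberg adjusted p = 0.0490), with 1.67 in Dounce without TRAP replicate 3. In Tissue it differed by 0.12 with 3 of 4 TRAP libraries above all of Input (exact permutation, adjusted p = 0.137), and was called without Tissue-TRAP replicate 4 (0.16).

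**Figure D3:**
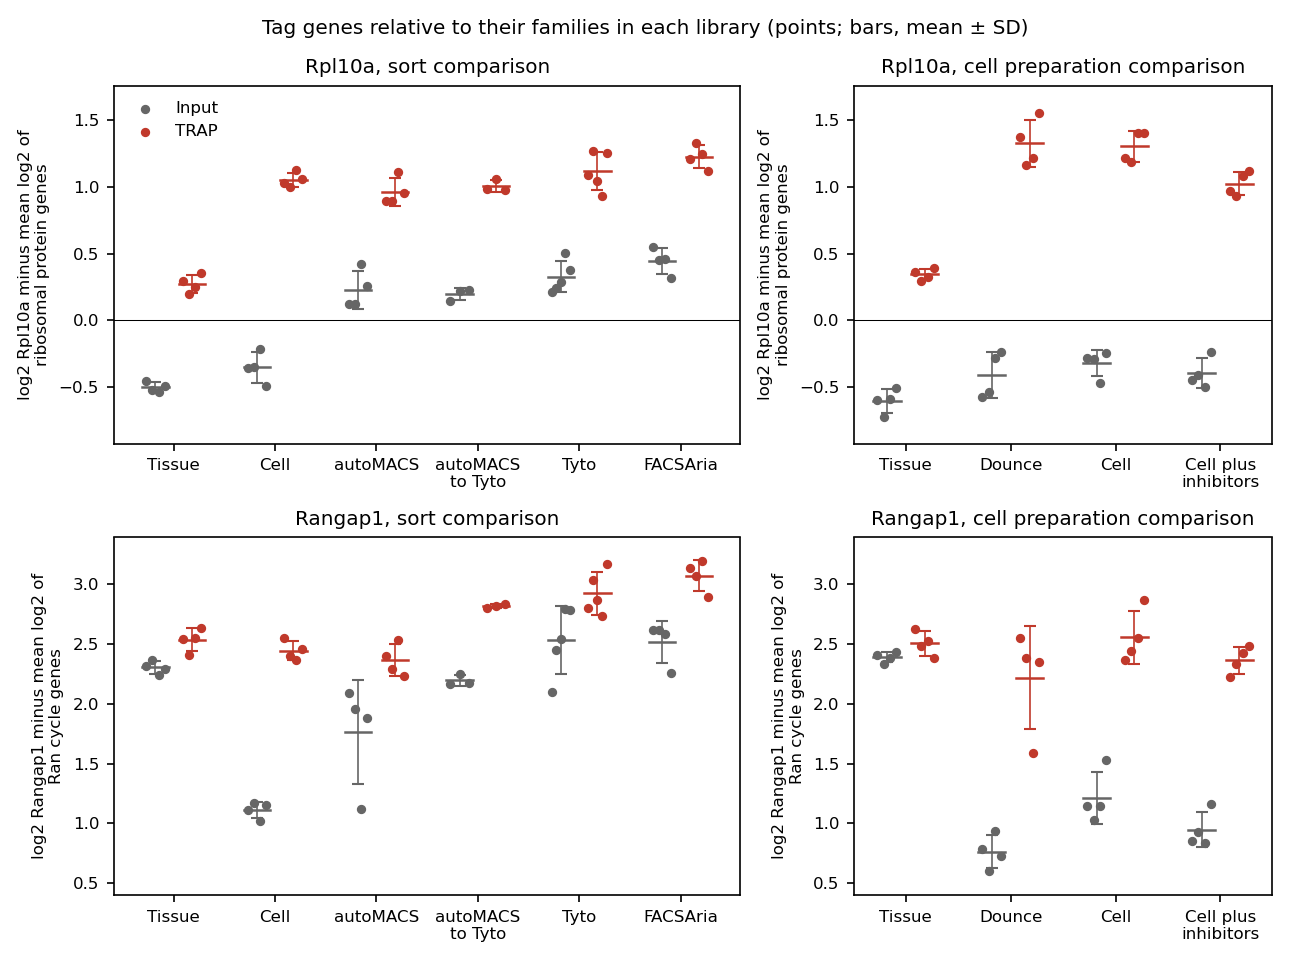
Log2 level of Rpl10a minus the mean log2 level of 77 other ribosomal protein genes (top) and of Rangap1 minus that of 26 other Ran cycle genes (bottom), 1 point per library, in Input (grey) and TRAP (red), with bars for the mean ± SD; sort comparison on the left, cell preparation comparison on the right. Rpl10a lies below 0 in every unsorted Input and above 0 in every TRAP group, and Rangap1 is lowest in Dounce-Input (0.76) and low in the Input of the other unsorted suspensions.

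Whether the TRAP minus Input difference itself depended on the preparation was tested as an interaction in the same model. For Rangap1 the difference was larger in Cell than in Tissue by 1.55 ± 0.20 (log2, SE) in the sort comparison (edgeR quasi-likelihood, Benjamini-Hochberg adjusted p = 2.54e-08), where 63.9% of genes were called. It was larger by 1.49 ± 0.20 in the preparation comparison (edgeR quasi-likelihood, Benjamini-Hochberg adjusted p = 4.35e-07; 59.6% of genes called). In Dounce it exceeded Tissue by 1.79 ± 0.21 (edgeR quasi-likelihood, Benjamini-Hochberg adjusted p = 3.80e-08; 51.9% called), and by 1.74 without Dounce-TRAP replicate 3. In the mean of the 4 sorts it was below Cell by -1.24 ± 0.16 (edgeR quasi-likelihood, Benjamini-Hochberg adjusted p = 8.57e-09; 58.6% called), and by -0.78 with DESeq2 size factors. Between Cell with and without inhibitors it differed by 0.03 ± 0.20 (adjusted p = 1, edgeR quasi-likelihood with Benjamini-Hochberg adjustment; 0.214% of genes called), with a sign that turned without Cell-Input replicate 4 (-0.11), Cell-TRAP replicate 1 (-0.05), or Cell plus inhibitors Input replicate 3 (-0.01) or TRAP replicate 4 (-0.02). Each of the 4 called Rangap1 interactions was called with every TMM reference. The Rangap1 difference thus varied between preparations, whose cell mix differs too and, save for Tissue and Cell of the sort comparison and for the inhibitors, their mice, and no change with inhibitors was detected.

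The same interactions for Rpl10a depend on what it is measured against. Scaled over all genes, its TRAP minus Input difference in Cell was below that in Tissue by -0.14 ± 0.10 in the sort comparison, not called (edgeR quasi-likelihood, Benjamini-Hochberg adjusted p = 0.223), but by -0.47, called, with DESeq2 size factors, which moved the median gene from -0.29 to -0.61. Against the mean profile of all libraries it was -0.35, called, and 35 of 48 TMM references gave a call. In the preparation comparison it was below by -0.55 ± 0.15 (edgeR quasi-likelihood, Benjamini-Hochberg adjusted p = 0.00300), while the 32 references gave -0.55 to -0.01 with a median of -0.24, and 10 of them a call. The size of this Rpl10a interaction over all genes is thus set largely by the scaling. Relative to the other ribosomal protein genes, per mouse, a measure added after the data were seen, the difference was instead larger in Cell, by 0.63 in the sort comparison (1.41 ± 0.10 against 0.78 ± 0.06, SD, n = 4 each; exact two-sided permutation p = 0.0286, adjusted over 4 tests 0.0286) and by 0.68 in the preparation comparison (exact permutation, adjusted over 6 tests p = 0.0429). All 4 values of Cell lay above all 4 of Tissue in both. In the sort comparison the 2 groups came from the same 4 mice, so they are not independent as the test takes them to be. The family's own interaction was -0.80 in the sort comparison (76 of 77 lower, with 63.9% of all genes called) and -1.24 in the preparation comparison (77 of 77 lower, with 59.6% called), so Rpl10a lost less than its family did from Tissue to Cell.

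Dounce and the sorts gave Rpl10a 1 direction on both scales. In Dounce its difference exceeded that in Tissue by 0.76 ± 0.15 (edgeR quasi-likelihood, Benjamini-Hochberg adjusted p = 0.000192), by 0.54 without Dounce-TRAP replicate 3, by 0.44 with the filter of at least 10 counts in every library, and by 0.79 relative to the family with all 4 mice above all 4 of Tissue (exact permutation, adjusted p = 0.0429). In the mean of the 4 sorts it was below Cell by -1.07 ± 0.08 (edgeR quasi-likelihood, Benjamini-Hochberg adjusted p = 1.90e-15), by -0.62 with DESeq2 size factors, and by -0.63 relative to the family, where all 16 sorted samples lay below all 4 of Cell (exact permutation p = 0.000206, the smallest possible, adjusted 0.000826). Those 16 came from 10 mice, some of which gave samples to more than 1 sort, so they are not independent as the test takes them to be. Inhibitors gave 0.27 ± 0.15 (adjusted p = 1, edgeR quasi-likelihood with Benjamini-Hochberg adjustment, and 0.20 to 0.41 without 1 replicate) and -0.20 relative to the family (exact permutation, adjusted p = 0.137), neither called. That permutation treats the groups as independent although they share mice, and the paired values relative to the family were lower with inhibitors in 4 of 4 mice (1.87 to 1.58, 1.65 to 1.36, 1.50 to 1.41 and 1.48 to 1.34). Per mouse and relative to its own family, Rangap1 gave 1.09 and 1.22 for Cell against Tissue in the sort and preparation comparisons, 1.34 for Dounce against Tissue and -0.80 for the sorts against Cell, all called by the exact permutation test with adjusted p of 0.0286, 0.0429, 0.0429 and 0.00165. The first of these tests took groups from the same mice as independent, and the last took sorted samples that share mice as independent. In Dounce, replicate 3 was at 0.65 and the other 3 mice at 1.63 to 1.78. The sorts overlapped Cell because autoMACS replicate 3 reached 1.41, as high as Cell (1.22 to 1.43).

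The Input libraries alone show how the starting RNA differed between preparations. From Tissue-Input to Cell-Input Rangap1 fell by 1.08 ± 0.19 (log2, SE) and Rpl10a rose by 0.39 ± 0.08 in the sort comparison (edgeR quasi-likelihood, Benjamini-Hochberg adjusted p = 2.55e-05 and 7.79e-05; 75.1% of genes called). In the preparation comparison Rangap1 fell by 1.19 ± 0.11 and Rpl10a rose by 0.69 ± 0.10 (edgeR quasi-likelihood, Benjamini-Hochberg adjusted p = 1.82e-08 and 3.11e-06; 76.8% called). Rangap1 fell more than any of the 26 Ran cycle genes in both comparisons, whose medians were -0.02 (0.06 against the mean profile of all libraries) and -0.13. Relative to its family Rangap1 fell by 1.19 and 1.17 in 4 of 4 libraries (exact two-sided permutation, Benjamini-Hochberg adjusted p = 0.0423 and 0.0490), and in the preparation comparison the Rpl10a ratio rose by 0.28 in 4 of 4 (exact permutation, adjusted p = 0.0490). No library of Cell-Input lay within the range of Tissue-Input for either gene. Between the same groups the neuron marker sum fell and the microglia, oligodendrocyte, astrocyte and endothelial sums rose, in both comparisons. Their part in the change of Rangap1 was not tested. From Cell-Input to the mean of the 4 sorts both genes rose, Rangap1 by 1.54 ± 0.17 and Rpl10a by 1.33 ± 0.07 (edgeR quasi-likelihood, Benjamini-Hochberg adjusted p = 1.04e-08 and 5.08e-15; 84.9% of genes called), each above every member of its family, while the sums of neuron, oligodendrocyte, astrocyte and endothelial markers fell as given above. All 16 sorted Input libraries exceeded all 4 of Cell-Input for both, and relative to its family Rangap1 did so in 15 of 16, by 1.16 (exact permutation, adjusted p = 0.00619). Across the 4 sorts Rangap1 differed in Input (edgeR quasi-likelihood F test, Benjamini-Hochberg adjusted p = 0.0244; 16.9% of genes called), lowest in autoMACS, with a largest difference of 0.78, and 0.56, still called, without autoMACS-Input replicate 3, and Rpl10a did not pass the threshold (adjusted p = 0.344 by the same test).

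Dounce-Input held less of both genes. The authors report a lower mean RNA integrity in Dounce-Input than in Tissue-Input and Cell-Input. For the preparation comparison they also report read coverage more biased to the downstream end of genes in Tissue and Dounce than in both enzymatic suspensions. They report this bias for Input and for TRAP. The deposited counts hold neither measure, and their part in the differences of that comparison was not tested. Against Tissue-Input Rangap1 fell by 1.80 ± 0.12 and Rpl10a by 1.02 ± 0.10 (edgeR quasi-likelihood, Benjamini-Hochberg adjusted p = 6.11e-11 and 1.90e-08; 79% of genes called), with no overlap. Against Cell-Input Rangap1 fell by 0.61 ± 0.12 and Rpl10a by 1.70 ± 0.10 (edgeR quasi-likelihood, Benjamini-Hochberg adjusted p = 7.30e-05 and 1.22e-11; 84.1% called), again with no overlap. The neuron marker sum was higher in Dounce-Input than in Cell-Input (2566 against 471 CPM), and the other marker sums were lower. The part of these cell types was not tested. The ribosomal family fell with Rpl10a, 77 of 77 lower against Tissue and against Cell with medians of -1.18 and -1.64, so the Rpl10a ratio differed by 0.20 from Tissue-Input (exact two-sided permutation, adjusted p = 0.202) and by -0.09 from Cell-Input (adjusted p = 0.457, exact permutation), neither called. Leaving out Dounce-Input replicate 1 or 2 made the first a call (0.25 and 0.24), and the second ran from -0.14 to -0.03 without 1 replicate. Rangap1 fell further than the median of its family, which was -0.20 against Tissue and -0.14 against Cell, and its ratio fell by 1.63 and 0.45 (exact permutation, adjusted p = 0.0490 each, 4 of 4 libraries lower).

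The TRAP libraries were compared in the same way. From Tissue-TRAP to Cell-TRAP of the sort comparison Rangap1 rose by 0.39 ± 0.09 and Rpl10a by 0.16 ± 0.08 (edgeR quasi-likelihood, Benjamini-Hochberg adjusted p = 0.000282 and 0.0546; 83.8% of genes called). Neither held under DESeq2 size factors, which moved the median gene from -0.01 to -0.34 and gave 0.06 for Rangap1, not called, and -0.17 for Rpl10a, called in the other direction. The Rpl10a rise was called with 3 of 24 TMM references. It was also lost without Cell-TRAP replicates 1 (0.11) or 3 (0.15) or Tissue-TRAP replicate 2 (0.14). The ribosomal family fell between the same groups (72 of 77 lower, median -0.60), and Rpl10a lay above all 77. In the preparation comparison Rangap1 rose by 0.49 ± 0.16 and Rpl10a by 0.32 ± 0.12 (edgeR quasi-likelihood, Benjamini-Hochberg adjusted p = 0.0103 and 0.0194; 77.9% called). Both calls were lost with the filter of at least 10 counts in every library (0.28 and 0.12), and that of Rpl10a without Cell-TRAP replicate 4 (0.19). Relative to its family Rangap1 did not differ by a called amount between Cell-TRAP and Tissue-TRAP, at -0.09 in the sort comparison (exact permutation, adjusted p = 0.181) and 0.05 in the preparation comparison (exact permutation, adjusted p = 0.805), the latter at -0.05 without Cell-TRAP replicate 4. With the 10 regulators alone as the family the values were 0.59 and 0.75, both called.

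From Cell-TRAP to the mean of the 4 sorts Rangap1 rose by 0.50 ± 0.07 and Rpl10a by 0.46 ± 0.06 (edgeR quasi-likelihood, Benjamini-Hochberg adjusted p = 1.80e-06 and 9.32e-07; 59.9% of genes called). The ribosomal family rose with Rpl10a, 75 of 77 higher with a median of 0.44, whereas 1 of 26 Ran cycle genes exceeded Rangap1, whose ratio rose by 0.36 with 12 of 16 sorted libraries above all of Cell (exact two-sided permutation, adjusted p = 0.0423). The other 4 were those of autoMACS, where the mean ratio was 2.37 against 2.44 in Cell, so that sort did not share the rise. Across the 4 sorts Rangap1 differed in TRAP, from 434 CPM in autoMACS to 698 in FACSAria (edgeR quasi-likelihood F test, Benjamini-Hochberg adjusted p = 3.44e-05; 28.8% of genes called). Rpl10a did not pass (adjusted p = 0.181 by the same test), except without autoMACS-TRAP replicate 1, where its largest difference between sorts was 0.28. The tests across the sorts, in Input and in TRAP, take libraries as independent, although some mice gave libraries to more than 1 sort. Dounce-TRAP differed from Tissue-TRAP by -0.16 for Rangap1, not called (edgeR quasi-likelihood, Benjamini-Hochberg adjusted p = 0.385) and 0.00 without Dounce-TRAP replicate 3, and Rpl10a fell by 0.41 ± 0.12 (adjusted p = 0.00517 by the same test; 75.1% of genes called). Against Cell-TRAP, Dounce-TRAP was lower by -0.65 ± 0.16 for Rangap1 and -0.74 ± 0.12 for Rpl10a (edgeR quasi-likelihood, Benjamini-Hochberg adjusted p = 0.00247 and 5.21e-05; 59.6% of genes called), and Rangap1 by -0.48, still called, without Dounce-TRAP replicate 3. Markers of other cells differed between these TRAP groups as well, with neuron sums of 1221 CPM in Dounce-TRAP and 79.03 in Cell-TRAP, oligodendrocyte sums of 1548 and 778 and endothelial sums of 62.4 and 706, and their part was not tested. With inhibitors Rangap1 differed from Cell-TRAP by -0.23 (edgeR quasi-likelihood, Benjamini-Hochberg adjusted p = 0.813), and by -0.31 to -0.09 without 1 replicate. With the mouse as a replicate block, the paired value was -0.21 and was called (adjusted p = 0.0801, edgeR quasi-likelihood with Benjamini-Hochberg adjustment), with 1768 genes called in place of 311.

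Per kilobase of transcript, the scale on which genes can be compared, Rpl10a moved up its family in TRAP. Lengths are those of the longest principal transcript, which is far longer than the coding part for some genes (5179 bases for Rps15a, 3706 for Rps20 and 2989 for Rpl18), so places within a group are uncertain. Of 78 ribosomal protein genes it was 54th in Tissue-Input (152 CPM per kb against a family median of 184) and 25th in Tissue-TRAP (284 against 214), and 47th in Cell-Input and 4th in Cell-TRAP (315 against 138). In the sorts it was 16th to 24th in Input and 2nd or 3rd in TRAP. In the preparation comparison it went from 55th to 17th in Tissue, from 43rd to 3rd in Cell, from 45th to 3rd with inhibitors, and from 46th to 1st in Dounce (243 CPM per kb in TRAP against a median of 84.2). Rangap1 stood high among the Ran cycle genes in most groups: of 27 genes it was 2nd in Tissue-Input (85.0 CPM per kb against a median of 13.6) and Tissue-TRAP of the sort comparison and 1st in both of the preparation comparison. It was 1st in every other TRAP group. Its lowest places were in unsorted suspensions, 5th in Cell-Input of the sort comparison (37.5 against 12.9), 5th in Dounce-Input and in Cell-Input of the preparation comparison, and 6th with inhibitors. Per kb, Rpl10a exceeded Rangap1 in every group, for example 315 against 133 CPM per kb in Cell-TRAP of the sort comparison.

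The genes most like each tag gene over the 48 libraries of the sort comparison were named by Pearson's r of log2 CPM. For Rpl10a they were Sord (r = 0.974), Ntpcr (0.967), Pilra (0.962), Pold4 (0.958) and Gm13476 (0.957), and over the 32 libraries of the preparation comparison the same genes had r of 0.950, 0.888, 0.279, 0.951 and 0.760. For Rangap1 they were Mkl1 (r = 0.940), Vps33a (0.940), Pacs1 (0.940), Med15 (0.939) and Bag6 (0.930), with 0.805, 0.851, 0.946, 0.715 and 0.730 in the preparation comparison. Pilra, near the top for Rpl10a over all libraries of the sort comparison, was thus unlike it in the other comparison, whereas Pacs1 kept its likeness to Rangap1. Rpl10a and Rangap1 themselves had r = 0.604 over 48 libraries and 0.724 over 32. The points share mice, preparations and Input or TRAP status, so these values describe the libraries only.

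The Tissue libraries of the same 4 mice in both comparisons give a repeat. Rpl10a in the preparation comparison minus Rpl10a in the sort comparison was 0.01, -0.04, 0.14 and 0.16 (log2) in Input and 0.19, 0.38, 0.31 and 0.10 in TRAP of replicates 1 to 4. For Rangap1 it was 0.34, 0.21, 0.36 and 0.32 in Input and 0.30, 0.35, 0.16 and 0.02 in TRAP. Levels were higher in the preparation comparison in 15 of 16 pairs, but the tables were normalized separately and this offset was not tested. In both, Rpl10a was called higher in TRAP of Tissue and Rangap1 was not, but the mice were the same, so this is no repeat in other animals.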

How the data were processed

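The values used were the expected counts the authors deposited for each gene, made with Strand NGS from directional alignments to mm10 after trimming and removal of duplicate reads; by the authors' methods the tables hold genes with more than 5 reads in all samples of at least 1 group. The 48 and 32 columns of log2 normalized values in the same tables, the authors' comparison columns, and an earlier table with 24 of the preparation libraries were not used. Of the counts, 33.2% in the sort comparison and 20.8% in the preparation comparison were whole numbers, and all were rounded for the tests; 23 gene symbols turned into dates in each table were restored. Alignment, the assignment of reads to fusion transcripts and the handling of reads with several places were not redone.

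Tests used edgeR 4.0.16 in R 4.3.3 with TMM scaling, the quasi-likelihood F test (two-sided) and genes with more than 5 counts in every library of at least 1 group (15825 of 15919 and 15894 of 16000 in the joint fits; why the others are listed is not given); Benjamini-Hochberg adjustment ran over all genes of a comparison, and a call is a false discovery rate under 0.1. The tables were normalized separately and tests ran within a table only, TRAP against Input and its interactions in a joint fit of all libraries and comparisons across preparations in fits of Input or TRAP alone. Ratios are log2 CPM of a gene minus the mean log2 CPM of its family, tested by exact two-sided permutation of libraries, with adjustment over 20 tests in the sort comparison and 24 in the preparation comparison. This permutation takes libraries as independent, although Input and TRAP, and some preparations, share mice. DESeq2 1.42.0 gave alternative size factors and the Wald test. Python 3.11.15, numpy 2.4.6, pandas 2.3.3 and matplotlib 3.10.9 were used for ratios and figures. Lengths are those of the longest principal transcript of Gencode vM21.

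Rpl10a, Rangap1 and all gene lists were chosen with earlier results of these data known. Within the family lists, genes among the 3 highest and 3 lowest of each list were named in Tissue and Cell; Rpl10 was named for its likeness in name. TRAP minus Input per mouse relative to the family, and the alternative references for TMM, were added after the data had been seen. With the group mean of each gene taken off, Input and TRAP from the same mouse had a mean r of 0.14 to 0.51 over the preparations. The lowest value for a mouse was -0.16, in autoMACS. Taking off the group mean itself makes r between different mice negative (means of -0.19 to -0.03), so those values are no separate comparison. The mouse was tried as a replicate block where groups share mice. Replicates differed by more than counting alone would give in all 74 and 48 pairs of replicates examined (lowest ratio 3.65 and 3.69). The scripts were tested on simulated counts with known differences before use. For TRAP against Input in Cell, 57% of 1.5-fold changes were recovered in the sort comparison and 41% in the preparation comparison. Of 2-fold changes 79% and 84% were recovered. A gene not called may therefore still differ by such amounts.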

Additional observations from a re-analysis of the deposited data

Results flagged for a closer look

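The groups in which 1 library lay far from the others were 5 of 72, where chance gives about 1 in 20. Rpl10a was at 428 CPM in Tyto-Input replicate 3, above the other 4. Rangap1 was at 150.1 CPM in autoMACS-Input replicate 3, at 195 CPM in Dounce-TRAP replicate 3, and at 196 CPM in Cell-Input replicate 4 of the preparation comparison. The Rangap1 ratio to its family was 2.26 in FACSAria-Input replicate 4.

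The TRAP minus Input difference of Rangap1 differed between preparations by 1.55 (Cell minus Tissue, sort comparison), 1.49 (Cell minus Tissue, preparation comparison), 1.79 (Dounce minus Tissue) and -1.24 (mean of 4 sorts minus Cell). That of Rpl10a differed by -0.55 (Cell minus Tissue, preparation comparison), 0.76 (Dounce minus Tissue) and -1.07 (mean of 4 sorts minus Cell).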

How the results depend on the processing

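The calls for Rpl10a and Rangap1 kept their side of the threshold and direction in 54 of 58 fits with DESeq2 size factors, 50 of 54 with its Wald test, 53 of 58 with at least 10 counts in every library, 58 of 58 without a filter, 37 of 38 with the mouse as a replicate block, 55 of 58 with TMM against the mean of all libraries (added after the data were seen) and 654 of 672 without each replicate in turn. The ratio to the family kept them in 21 of 22 with large subunit genes only, 17 of 22 with regulators only, 38 of 44 with the median and 387 of 400 without each replicate in turn. All 28 ratio tests in blocks of mice, and 16 of the alternatives just counted, had too few values to pass, so they say nothing of the calls. The 28 values rest on the same libraries in full pairs, so their closeness to the main ones (within 1 SD) was set by the design and shows no stability.

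For Rpl10a, Cell minus Tissue of TRAP minus Input was -0.35 (called) in the sort comparison against the mean of all libraries, and FACSAria was -0.10 (not called); Rangap1 in Tissue of the sort comparison was 0.30 (called). Of 32 references, 10 gave a call for Rpl10a in Cell minus Tissue of the preparation comparison.

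With size factors, the Wald test and at least 10 counts in every library in turn, Rpl10a in Cell minus Tissue of TRAP minus Input was -0.47, -0.47 and -0.48 (called), TRAP of Cell minus Tissue in the sort comparison was -0.17, -0.17 and -0.20 for Rpl10a (reversed) and 0.0574, 0.0574 and 0.0266 for Rangap1 (not called). FACSAria for Rpl10a was -0.13 with size factors and -0.13 with the Wald test (not called). At least 10 counts made TRAP of Cell minus Tissue in the preparation comparison 0.28 for Rangap1 and 0.12 for Rpl10a (not called), and lowered the genes called to 6287, 6138, 7787, 8114, 5342, 7700, 7396 and 7582 in 8 comparisons that had 8953 to 13373 before. For inhibitors the genes called went from 34 to 123 (Wald) and 94 (replicate block) for TRAP minus Input, and from 311 to 632 (Wald) and 1768 (replicate block) in TRAP, where the paired value of Rangap1 was -0.21 (called); the replicate block changed no other call.

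Per mouse and relative to the family, Rpl10a reversed to 0.63 and 0.68 for Cell minus Tissue in the sort and preparation comparisons and to -0.20 for inhibitors. With regulators only, Rangap1 was 0.17 in Tissue (not called) and 0.90 in autoMACS-to-Tyto of the sort comparison, and TRAP was 0.59 (Cell minus Tissue, sort comparison, reversed), 0.75 (Cell minus Tissue, preparation comparison, called) and 0.19 (Dounce minus Tissue, reversed). With the median, Rangap1 was 0.12 in Tissue (not called) and 0.53 in autoMACS-to-Tyto, and Rpl10a was 0.11 in Input of Cell minus Tissue in the sort comparison (not called), 0.87 in autoMACS-to-Tyto, and reversed to -0.00511 in TRAP of Dounce minus Cell and to -0.0235 in TRAP of sorts minus Cell. With large subunit genes only, Rpl10a in Input of Dounce minus Tissue was 0.25 (called).

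Without each replicate in turn, values ran as follows. TRAP minus Input for inhibitors minus Cell was -0.11 to 0.17 for Rangap1 with 22 to 44 genes called, Rpl10a in FACSAria was -0.19 to -0.12 and Rangap1 in Tissue of the sort comparison 0.24 to 0.35. In TRAP, Rpl10a was 0.19 to 0.39 (Cell minus Tissue, preparation comparison), 0.11 to 0.19 (the same, sort comparison) and 0.18 to 0.29 (range over the sorts), Rangap1 was -0.28 to 0.00132 (Dounce minus Tissue), and 169 to 282 genes were called for inhibitors minus Cell. The Rangap1 ratio was -0.34 to -0.16 (Input, inhibitors minus Cell), 0.0759 to 0.16 (TRAP against Input, Tissue of the preparation comparison), -0.0539 to 0.12 (TRAP, Cell minus Tissue, preparation comparison) and -0.40 to -0.0753 (TRAP, Dounce minus Tissue). The Rpl10a ratio was 0.14 to 0.25 (Input, Dounce minus Tissue), 0.10 to 0.19 (Input, Cell minus Tissue, sort comparison) and -0.0525 to 0.0792 (TRAP, Dounce minus Cell).

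The share of calls that were higher moved with size factors from 39.1% to 22.0% (Cell minus Tissue of TRAP minus Input) and 29.1% to 55.6% (sorts minus Cell) in the sort comparison, 45.1% to 33.9% (Dounce minus Tissue), 48.9% to 33.3% (TRAP against Input in Cell of the sort comparison) and 74.2% to 61.9% (Tissue of the sort comparison). Reads of fusion and own transcripts, and cell number and RNA per cell, cannot be told apart, nor can mouse and preparation where the groups share no mice.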
